A study of Mus musculus with 14 samples.

Results

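The Nrf2 pathway is the main transcriptional defence of mammalian cells against oxidants and electrophiles, and 10 of its genes are described here across 3 groups of mouse skin mast cells. They were Nfe2l2 and Keap1 (the regulators), Srxn1 and Txnrd1 (thiol repair), Gclc, Gclm and Slc7a11 (glutathione supply), Hmox1 and Nqo1 (heme and quinone metabolism) and Osgin1 (a growth inhibitor induced by oxidative stress). They are 10 of the 55487 genes in the count table. All 10 were among the 21014 genes that passed the filter on low counts. The members were chosen by the measured level of Srxn1, which was far lower after treatment, so the level of Srxn1, and that of every member in the comparison of treated with untreated resident cells, is given as a description with no p-value.

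RNA was sequenced from small pools of mast cells sorted from both ears, with SMART-Seq HT amplification. MC903 (calcipotriol) is a vitamin D analogue that produces an atopic dermatitis-like inflammation when applied to mouse skin. Libraries 1 to 5 held resident mast cells from untreated mice. Libraries 6 to 10 held resident cells from ears treated with MC903. Libraries 11, 13, 14 and 15 also came from MC903 treatment, and their label gives bone marrow mast cells as the cell type. Resident and integrin β7-positive cells are those the protocol lists as sorted from the ears, so the bone marrow cells are taken here to be the integrin β7-positive cells of treated ears. No library held bone marrow cells from untreated mice. Cell origin and treatment therefore cannot be told apart in bone marrow against untreated resident cells, where words such as fell and rose give the direction only. The strain, genotype, age and sex of the mice, the length of treatment and the sorting gates were not given in the sources used here. The labels do not say which animal a library came from, so the p-values measure the spread between these libraries, which may be partly technical.

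Nrf2, the protein made from Nfe2l2, is held in the cytoplasm by Keap1 and passed to a ubiquitin ligase for degradation while the cell is unstressed. Oxidants and electrophiles modify cysteines of Keap1, and Nrf2 then accumulates, pairs with a small Maf protein and binds antioxidant response elements (AREs) in the promoters and enhancers of its target genes. Nrf2 is regulated mostly at the level of protein stability, which RNA counts do not measure, so the levels below are those of the transcripts only.

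Total counts ranged from 13068078 to 31781926 per library. All 10 mast cell markers examined (among them Kit, Cpa3 and Fcer1a) reached at least 1 CPM (counts scaled to the library size) in every library. These markers are shared by resident and bone marrow mast cells and do not check that label. Their summed level had a median of 87768 CPM (84736 to 110432) in untreated resident, 140929 CPM (103966 to 159683) in MC903 resident and 139150 CPM (101838 to 155353) in bone marrow libraries, with overlapping ranges, and the part of these levels in the results was not tested. Libraries 7, 8 and 15 had the most genes detected (34560, 35246 and 32814, against 16025 to 28790 in the others). Library 15 stood apart by its macrophage and dendritic cell markers, whose summed level was 13166 CPM and at most 338 CPM in the other 13 libraries, which goes against a label of mast cells alone. Mitochondrial genes took 1.22% to 1.70% of the counts in untreated resident libraries, 2.39% to 3.96% in MC903 resident libraries and 2.14% to 4.24% in bone marrow libraries, so that share moved with treatment. The part of that share in the results below was not tested. Keratinocyte markers summed to at most 8.98 CPM, fibroblast markers to at most 31.6 CPM and neutrophil markers to at most 74.5 CPM in any library. T cell markers summed to 0.075 to 5.93 CPM in untreated resident, 4.18 to 43.9 CPM in MC903 resident and 4.10 to 84.1 CPM in bone marrow libraries, and their part in the results was not tested. The 3 basophil markers summed to 481 to 737 CPM in untreated resident cells, 430 to 664 CPM in MC903 resident cells and 268 to 754 CPM in bone marrow libraries 13, 14 and 15, and to 1511 CPM in library 11. Cd200r3, one of them, is also made by mast cells. Library 11 was also the lowest of the 14 for Srxn1, Txnrd1, Keap1, Hmox1 and Osgin1. Without it the log2 fold changes of bone marrow against untreated cells were −3.06 for Srxn1, −0.97 for Txnrd1 and −5.14 for Osgin1.

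Promoter sequences are shown first for Srxn1 and Osgin1, the members with the largest differences in level. They are RefSeq sequences on GRCm38.p6, and a window of 300 bases (250 before the transcript start and 50 after it) was available for 8 of the 10 members, all but Hmox1 and Gclc. The core of an ARE was searched on both strands in 2 forms, TGACNNNGC and TGAGNNNGC, and the site of AP-1, the Jun and Fos family factor, as TGANTCA. TGAGTCAGC satisfies both the second ARE form and the AP-1 site. In the sequences, read 5′ to 3′ along the gene's strand, capitals mark every match. Distances are from the RefSeq transcript start. Neither stretch holds a base of an exon in GENCODE M21, and the Osgin1 stretch lies inside the GENCODE span of the gene, which has a start further upstream.
Srxn1, chr2:152105274-152105515, plus strand: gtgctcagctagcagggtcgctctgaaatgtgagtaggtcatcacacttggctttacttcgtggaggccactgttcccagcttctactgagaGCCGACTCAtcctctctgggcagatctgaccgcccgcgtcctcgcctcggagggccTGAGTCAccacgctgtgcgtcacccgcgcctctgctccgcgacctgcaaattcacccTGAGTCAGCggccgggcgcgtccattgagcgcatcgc
Osgin1, chr8:119436897-119437117, plus strand: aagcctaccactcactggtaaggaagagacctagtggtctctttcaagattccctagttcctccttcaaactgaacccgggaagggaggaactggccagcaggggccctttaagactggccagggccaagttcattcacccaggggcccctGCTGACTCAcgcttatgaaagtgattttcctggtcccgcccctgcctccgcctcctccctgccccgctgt

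The Srxn1 stretch held an AP-1 match that began at position −102, an ARE match read on the opposite strand that began at −158, and an overlapping ARE and AP-1 match that began at −45. The Osgin1 stretch held a single overlapping pair, in which the ARE match began at −99. An AP-1 match inside an ARE match was present in 0.822% of all 32851 mouse promoter windows of this length, and at least 2 AP-1 matches, as in Srxn1, in 0.46%. A single AP-1 match or more was present in 7.81% of the windows, and in those of 2 of the 8 members. The ARE forms are common by letters alone, since 27.8% of all windows held either of them (12.4% the first form and 17.6% the second). They were present in 6 of the 10 windows of these 8 members, of which Txnrd1 has 3. The windows of Keap1 and Nqo1 held no match to these letters, which says nothing of more distant sites. The shares of all windows are a description and no test, since the Srxn1 and Osgin1 stretches were picked by their differences in level. A match describes the letters only, and binding was not measured in these data.

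The ARE matches of the other members are shown with 8 bases on either side because their letters differ between genes while the invariant TGA and GC ends are kept. The Txnrd1 match was in 1 of its 3 annotated start windows, the Nfe2l2 match lay in an annotated exon outside the span of Nfe2l2 itself, and an additional Srxn1 match lay in its first exon, 29 bases after the start. Where the capitals begin with GC, the match is on the opposite strand.
Txnrd1, chr10:82859106-82859130: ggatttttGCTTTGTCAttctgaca
Gclm, chr3:122245415-122245439: tcccgggcGCACCGTCAactctcac
Slc7a11, chr3:50443694-50443718: atgttggcGCTTTCTCAagctggag
Nfe2l2, chr2:75704887-75704911: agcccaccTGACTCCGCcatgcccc
Srxn1 after the start, chr2:152105544-152105568: agtgggcaGCTAGGTCAgagtgaga

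**Figure D1:**
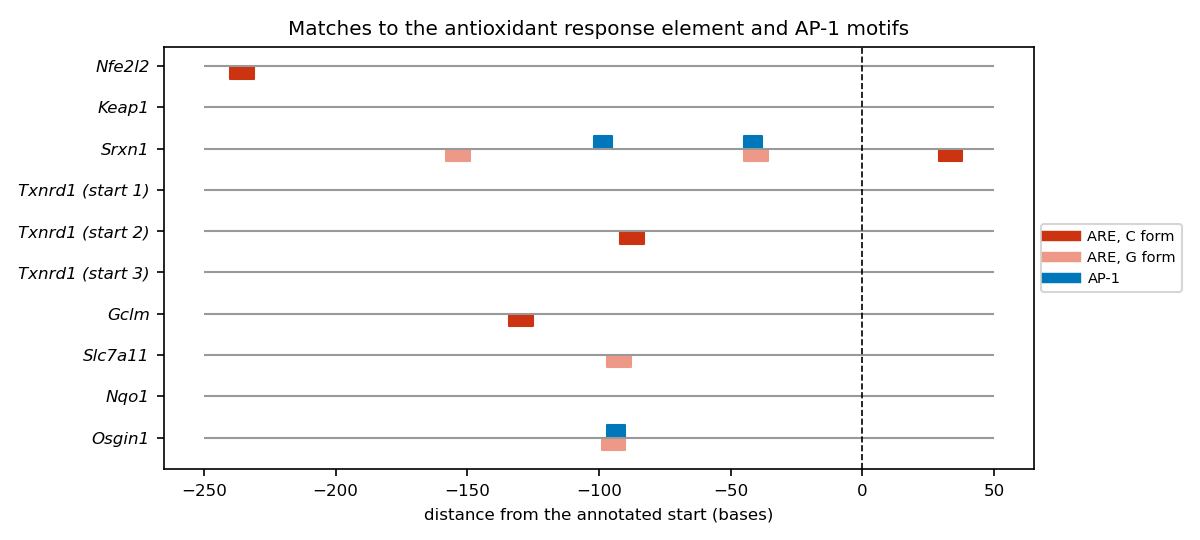
Positions of ARE and AP-1 letter matches in the promoter windows of the members, in bases from the transcript start (x axis), with 1 row per start window and a box for each match (ARE below the line, AP-1 above it). AP-1 matches are drawn for Srxn1 and Osgin1, and they overlap an ARE match at the site nearest upstream of the start in Srxn1 and at the single Osgin1 site.

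Among these genes, Srxn1 was by far the most abundant in untreated resident cells when levels were compared per length of exon. Its mean was 392 ± 101 RPKM (CPM per kilobase of exon, SD, n = 5), which placed it 113th among the 21014 genes tested. Nfe2l2 followed at 94.5 ± 7.67 RPKM and Hmox1 at 37.2 ± 13.03 RPKM. Osgin1 (19.4 ± 14.1), Gclc (12.7 ± 4.84) and Txnrd1 (10.8 ± 4.32) came next in RPKM and did not differ from one another beyond their spread. Gclm (6.11 ± 2.70) and Keap1 (4.75 ± 1.29) were likewise within each other's spread, and Nqo1 (1.81 ± 2.74) and Slc7a11 (0.123 ± 0.217) were the lowest.

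The order was different in the cells of treated ears. In MC903 resident cells Nfe2l2 stood first at 49.9 ± 10.9 RPKM, and Srxn1 had a mean of 26.9 ± 14.6 RPKM and ranked 1516th of the genes tested. Hmox1 (16.01 ± 5.44), Osgin1 (10.2 ± 12.0) and Gclc (7.27 ± 2.66) followed in RPKM, each within the spread of its neighbour. In bone marrow cells Nfe2l2 had 62.1 ± 20.7 RPKM and Srxn1 37.6 ± 21.5 RPKM (SD, n = 4), which did not differ beyond their spread, while Osgin1 had 0.426 ± 0.418 RPKM. The mean of Hmox1 in bone marrow cells, 111 ± 200 RPKM, rested on library 15. Because these are bulk libraries, fewer cells expressing a gene and less RNA of it per cell cannot be told apart.

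**Figure D2:**
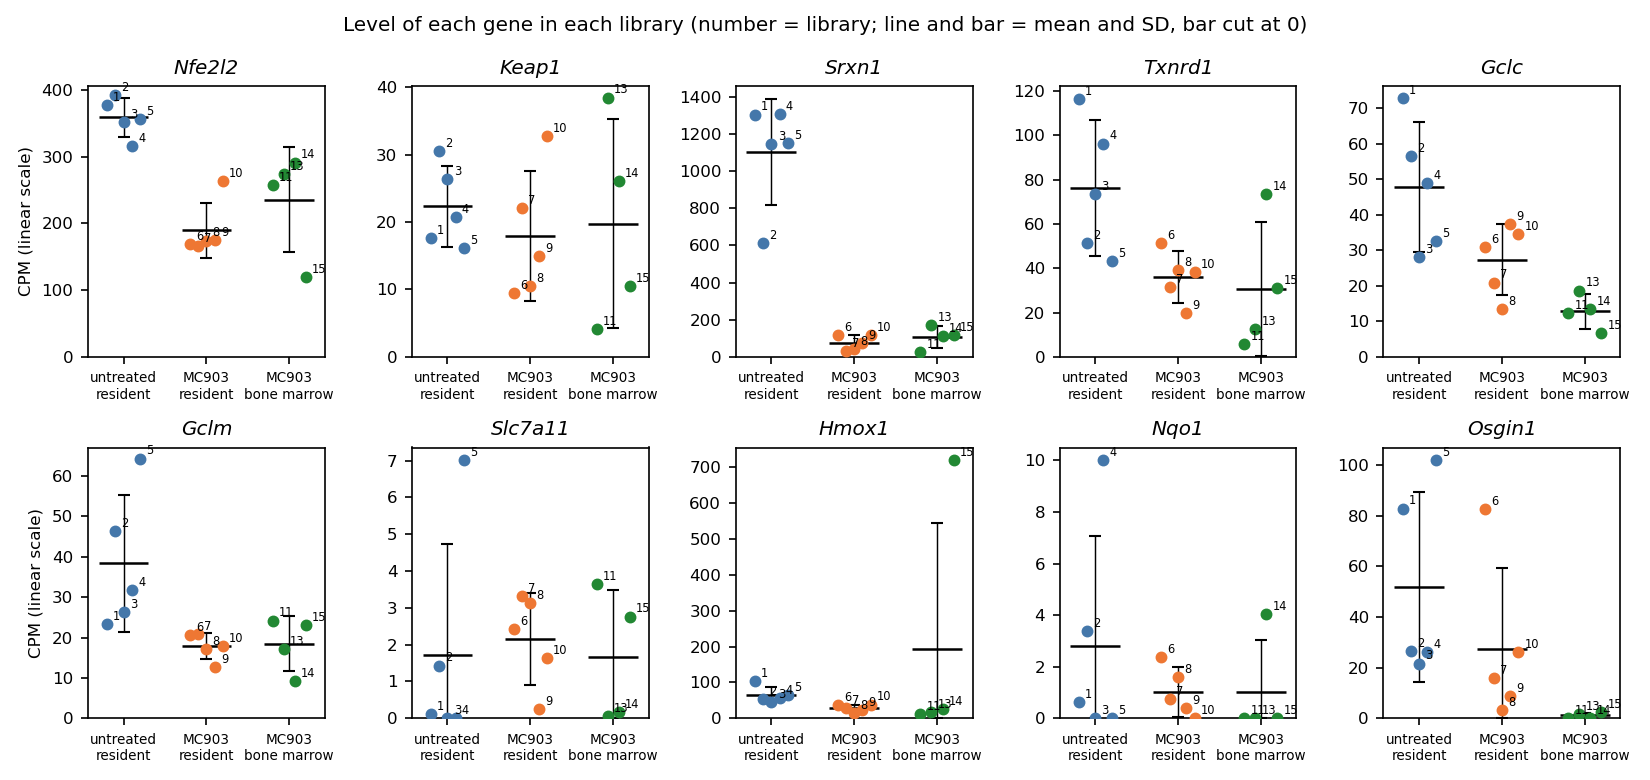
Level of each of the 10 genes in each of the 14 libraries, in CPM on linear axes (y), by group (x); each point is a library, with the group mean (line) and SD (bar, not drawn below 0). Srxn1 separates the untreated libraries (613 to 1308 CPM) from all others (24.1 to 170.2 CPM), Osgin1 separates the bone marrow libraries from the rest, and a single bone marrow library carries the high Hmox1 level.

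The members were compared between the groups in 3 ways, of which any pair shares the libraries of a group, so that the results of the 3 are not independent of each other. In MC903 resident cells against untreated resident cells, the comparison that chose the set, counts are a description only. Srxn1 left aside, 1 of the other 9 members was past the adjusted threshold (Nfe2l2, lower), and 2.25% of all genes tested were (1.68% lower, 0.571% higher). The log2 fold change was below 0 for 8 of these 9, with a median of −0.92, and the median over all genes tested was 0.24. All medians over the 9 members include Nqo1 and Slc7a11, whose own fold changes rest on few reads. Between bone marrow and MC903 resident cells, 1 of the same 9 members passed (Osgin1, lower), against 2.27% of all genes (0.952% lower, 1.32% higher), and their median was −0.021 against −0.28. That median is the value of Nqo1, which rests on few reads, so nothing is read from its sign. When bone marrow cells were set against untreated resident cells, 2 of the 9 passed (Gclc and Osgin1, both lower), against 6.87% of all genes (3.37% lower, 3.49% higher), and their median was −1.06 against −0.14.

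The median over all genes shifts with the scaling, from 0.24 to 0.40 with DESeq2 size factors and to 0.45 with TMM factors taken over genes at 10 CPM or more in MC903 resident against untreated cells, and from −0.28 to −0.43 with either in bone marrow against MC903 resident cells. Fold changes near 0 are therefore relative to that shift. Those of Keap1 and Gclm in bone marrow against MC903 resident cells changed sign with it.

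**Figure D3:**
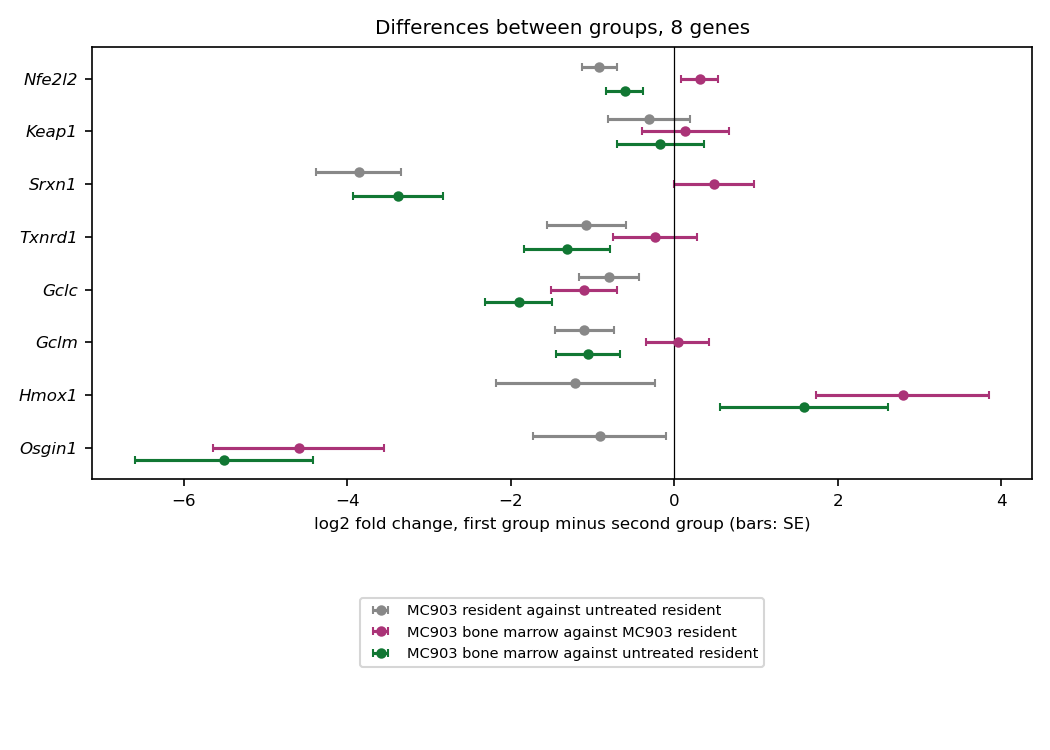
Log2 fold change (x axis) with its standard error (bar) for each of the 8 members with counts enough for a fold change (y axis), in the 3 comparisons. The comparison that chose the set is in grey. Srxn1 lies near −3.86 and −3.38 against untreated cells and at 0.48 between the groups of treated mice, whereas Osgin1 lies lowest in both comparisons of bone marrow cells.

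Nfe2l2 (chr2:75675513-75704641, minus strand) encodes Nrf2 itself. Its level in untreated resident libraries 1 to 5 was 378, 392, 351, 316 and 357 CPM, a spread of only 29.1 CPM (SD, n = 5). In MC903 resident libraries 6 to 10 it was 169, 166, 174, 175 and 263 CPM. In bone marrow libraries 11, 13, 14 and 15 it was 258, 274, 291 and 119 CPM. Every library from treated mice was thus below every untreated one, with library 10 the highest of the resident libraries and library 15 the lowest of all. The mean in MC903 resident cells was 1.89-fold lower than in untreated cells (log2 fold change −0.92 ± 0.212, SE). In bone marrow cells it was 1.52-fold lower than in untreated cells (−0.61 ± 0.226, SE), which missed the threshold (edgeR adjusted p = 0.118) although the groups did not overlap, and it passed with DESeq2 (adjusted p = 0.0399) and with limma (adjusted p = 0.0493). With a library left out it ranged from −0.72 to −0.39 and was called in no fit (edgeR adjusted p from 0.104 to 0.185). The 2 groups of treated mice did not differ beyond the spread (0.31 ± 0.223, SE, 95% interval −0.13 to 0.75, edgeR adjusted p = 0.495). That value ranged from 0.17 to 0.54 with a library left out (edgeR adjusted p from 0.107 to 0.780).

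Keap1 (chr9:21229730-21239361, minus strand), the sensor that holds Nrf2, was low and spread widely in all groups. It ranged from 16.2 to 30.6 CPM in untreated resident cells, from 9.48 to 32.7 CPM in MC903 resident cells and from 4.06 to 38.5 CPM in bone marrow cells. The groups overlapped throughout. The intervals remained wide, from −1.22 to 0.87 on the log2 scale for bone marrow against untreated cells (edgeR adjusted p = 0.907) and from −0.90 to 1.17 against MC903 resident cells (edgeR adjusted p = 0.925). Exons of Keap1 share 510 bases with a gene on the opposite strand, Gm16754, and the strand setting of the counting is not given in the sources used here, so its level is uncertain to that extent.

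Srxn1 (chr2:152105516-152111376, plus strand) encodes sulfiredoxin, which restores peroxiredoxins that hydrogen peroxide has over-oxidised. Its level in untreated resident libraries 1 to 5 was 1305, 613, 1147, 1308 and 1149 CPM. In MC903 resident libraries 6 to 10 it was 115, 28.8, 41.4, 75.0 and 119 CPM. In bone marrow libraries 11, 13, 14 and 15 it was 24.1, 170.2, 110 and 119 CPM. The lowest untreated library, library 2, was above the highest library of treated mice, and the 2 treated groups overlapped in full. The fitted level was 14.5-fold lower in MC903 resident cells than in untreated resident cells (log2 fold change −3.86 ± 0.518, SE) and 10.4-fold lower in bone marrow cells (−3.38 ± 0.555, SE). Between the treated groups the log2 fold change was 0.48 ± 0.488 (SE), with an interval from −0.48 to 1.44. Without libraries 7, 8 and 15 the differences from untreated cells were −3.42 and −3.46. From 503 to 30610 reads per library lay behind these values.

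Txnrd1 (chr10:82833951-82897712, plus strand) encodes cytosolic thioredoxin reductase, which reduces thioredoxin with NADPH and so supplies the sulfiredoxin reaction. It stood at 117, 51.4, 73.6, 96.3 and 43.1 CPM in untreated resident libraries 1 to 5. It stood at 51.4, 31.5, 39.2, 19.8 and 38.2 CPM in MC903 resident libraries 6 to 10, and at 5.74, 12.4, 73.3 and 31.1 CPM in bone marrow libraries 11, 13, 14 and 15. The ranges overlapped between all groups, with library 14 close to the untreated median of 73.6 CPM and library 11 the lowest of the 14. The mean was 2.10-fold lower in MC903 resident than in untreated cells (log2 fold change −1.07 ± 0.485, SE). Bone marrow against untreated cells gave −1.31 ± 0.525 (SE, edgeR adjusted p = 0.148) with all libraries and −2.22 (edgeR adjusted p = 0.00475) without library 14. It also passed with limma (−2.05, adjusted p = 0.0176) and with no low-count filter (−1.29, edgeR adjusted p = 0.0194). Against MC903 resident cells it was −0.24 ± 0.511 (SE, edgeR adjusted p = 0.855), and −1.14 without library 14.

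Glutathione is made in 2 steps, of which the first is catalysed by glutamate-cysteine ligase, a pair of a catalytic subunit (Gclc) and a modifier subunit (Gclm). Gclc (chr9:77754535-77794485, plus strand) had 72.9, 56.6, 28.03, 48.9 and 32.5 CPM in untreated resident libraries 1 to 5. It had 30.8, 20.9, 13.3, 37.3 and 34.6 CPM in MC903 resident libraries 6 to 10, and 12.4, 18.6, 13.5 and 6.58 CPM in bone marrow libraries 11, 13, 14 and 15. The bone marrow libraries were all below the lowest untreated library, and the MC903 resident libraries overlapped both groups. Gclc fell 3.74-fold in bone marrow cells relative to untreated resident cells (log2 fold change −1.90 ± 0.410, SE, edgeR adjusted p = 0.00531), a call kept in every alternative run, with a largest adjusted p of 0.0203. Relative to MC903 resident cells it was −1.10 ± 0.398 (SE, edgeR adjusted p = 0.154, DESeq2 adjusted p = 0.0216). The MC903 resident mean was 1.74-fold below the untreated mean (−0.80 ± 0.368, SE, and −0.93 to −0.52 with a library left out).

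Gclm (chr3:122245557-122270732, plus strand), the modifier subunit, had 23.3, 46.3, 26.4, 31.9 and 64.3 CPM in untreated resident libraries 1 to 5, 20.7, 20.8, 17.2, 12.8 and 17.8 CPM in MC903 resident libraries 6 to 10, and 24.2, 17.2, 9.30 and 22.997 CPM in bone marrow libraries 11, 13, 14 and 15. The untreated libraries were all above the MC903 resident ones, by a narrow margin between libraries 1 and 7, and overlapped the bone marrow ones at library 11. The mean was 2.14-fold lower in MC903 resident than in untreated cells (log2 fold change −1.10 ± 0.365, SE). In bone marrow cells it was −1.06 ± 0.392 (SE) against untreated cells, short of the threshold with edgeR (adjusted p = 0.117) and past it with DESeq2 (adjusted p = 0.0482), and 0.04 ± 0.383 (SE, edgeR adjusted p = 0.970) against MC903 resident cells. Gclm shares 296 exon bases with Gm17494 on the opposite strand and 244 with Gm6061 on the same strand, so reads there could not be assigned with certainty.

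Slc7a11 (chr3:49892526-50443614, minus strand), the cystine carrier that brings in the cysteine precursor for glutathione, was close to the limit of detection. It ranged from 0 to 7.005 CPM in untreated resident cells, from 0.243 to 3.32 CPM in MC903 resident cells and from 0.0695 to 3.64 CPM in bone marrow cells, with 0 to 157 reads per library. The groups overlapped in full, and no fold change is given at these counts.

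Hmox1 (chr8:75093621-75100589, plus strand) encodes heme oxygenase 1, which breaks heme down to biliverdin, iron and carbon monoxide and is abundant in macrophages that clear red cells. It had 104, 53.4, 45.8, 57.3 and 64.8 CPM in untreated resident libraries 1 to 5 and 36.1, 27.9, 15.4, 22.5 and 38.4 CPM in MC903 resident libraries 6 to 10. In bone marrow libraries it had 11.9, 17.5 and 26.5 CPM in libraries 11, 13 and 14, and 720 CPM in library 15. The untreated and MC903 resident libraries did not overlap, and 3 bone marrow libraries lay below every untreated one while library 15 exceeded all others. In library 15 the macrophage genes C1qb (2239 CPM), Lyz2 (4789 CPM), Csf1r (1094 CPM), Cd74 (2696 CPM) and Adgre1 (339 CPM) were high. The highest levels in the other 13 libraries were 7.67, 257, 10.3, 45.5 and 16.8 CPM. The dendritic cell genes Itgax and Flt3 stood at 2.61 and 1.26 CPM in library 15, below their highest levels elsewhere (7.01 and 1.66 CPM). Of the 10 markers in that list, 8 were higher in library 15 than anywhere else. The log2 fold change of Hmox1 in bone marrow cells was 1.59 ± 1.02 (SE, edgeR adjusted p = 0.429) against untreated and 2.79 ± 1.06 (SE, edgeR adjusted p = 0.199) against MC903 resident cells with every library included. Without library 15 it turned to −1.81 ± 0.388 (SE, edgeR adjusted p = 0.00473) and −0.59 ± 0.368 (SE, edgeR adjusted p = 0.266). In MC903 resident against untreated cells it was −1.21 ± 0.977 (SE) in the fit of all libraries and −1.18 ± 0.293 (SE) in a fit of these 2 groups alone.

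**Figure D4:**
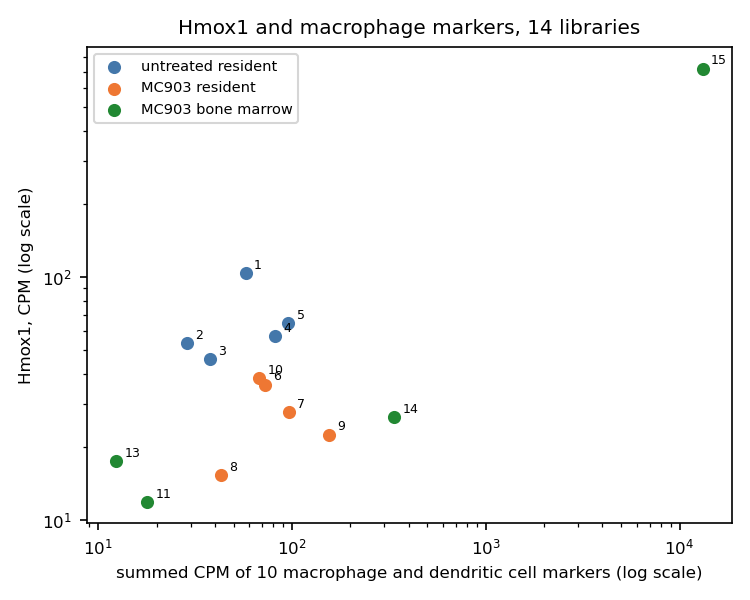
Level of Hmox1 (y axis, CPM, log scale) against the summed level of 10 macrophage and dendritic cell markers (x axis, CPM, log scale), with a point for each of the 14 libraries coloured by group. Library 15, at 13166 CPM of markers and 720 CPM of Hmox1, stands alone, while the other bone marrow libraries have 11.9 to 26.5 CPM of Hmox1.

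Nqo1 (chr8:107388225-107403206, minus strand), a quinone reductase often used as a readout of Nrf2, was low and detected unevenly. It ranged from 0 to 10.001 CPM in untreated resident libraries, from 0 to 2.38 CPM in MC903 resident libraries and from 0 to 4.05 CPM in bone marrow libraries, with at most 211 reads in a library. In bone marrow cells all reads were in library 14. No fold change is given because each group had libraries with 0 reads.

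Osgin1 (chr8:119434124-119446256, plus strand) encodes a growth inhibitor induced by oxidative stress. It had 82.8, 26.6, 21.6, 26.2 and 102 CPM in untreated resident libraries 1 to 5, and 82.7, 15.9, 3.38, 8.78 and 26.2 CPM in MC903 resident libraries 6 to 10. In bone marrow libraries 11, 13, 14 and 15 it had 0.167, 1.67, 0.256 and 2.46 CPM, from 4 to 49 reads each. No bone marrow library reached the lowest library of either resident group, while the 2 resident groups overlapped, with library 6 at the level of the highest untreated libraries. Osgin1 fell 45.3-fold in bone marrow cells relative to untreated resident cells (log2 fold change −5.50 ± 1.09, SE, edgeR adjusted p = 0.00500), and this call was kept in every alternative run, with a largest adjusted p of 0.0435. Relative to MC903 resident cells it fell 24.1-fold (−4.59 ± 1.04, SE, edgeR adjusted p = 0.0310). That second call was lost with limma (adjusted p = 0.0885), with only the groups compared (adjusted p = 0.0523) and without library 10, 11, 13 or 14 (adjusted p = 0.0525, 0.104, 0.142 and 0.130). In MC903 resident against untreated cells the difference was −0.91 ± 0.814 (SE). With a library left out that difference ranged from −1.85, without library 6, to −0.51. Without library 15 the differences of bone marrow cells were −6.17 against untreated and −5.26 against MC903 resident cells, and without library 6 the latter was −3.64.

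Counted by overlap and with Srxn1 left aside, 3 of the other 9 members had all MC903 resident libraries below all untreated ones (Nfe2l2, Gclm and Hmox1), and 0 had them all above, in the comparison that chose the set. Of all genes tested, 5.33% did not overlap between these groups (3.2% lower, 2.13% higher). Against untreated cells 3 of the 9 were lower without overlap in bone marrow cells (Nfe2l2, Gclc and Osgin1), beside 10.4% of all genes (5.27% lower, 5.11% higher). Against MC903 resident cells Osgin1 was the single such member in bone marrow cells, beside 8.29% of all genes (4.29% lower, 4% higher).

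The genes whose level over the 14 libraries was most like that of Srxn1, among 6047 ranked genes (mean of 20 CPM or more), were Sertad1 (Pearson r = 0.957 of log2 CPM), Slc2a1 (0.954), Arl5b (0.952), P2ry10b (0.944) and Crem (0.944). These values are a description without a p, since the differences between the groups enter them. With the group means removed they were 0.746, 0.846, 0.848, 0.717 and 0.762. These genes were picked as the highest of the 6047 over the same libraries, so the latter values are a description as well. Slc2a1, the glucose transporter Glut1, had 155 to 188 CPM in untreated resident cells, 37.4 to 98.3 CPM in MC903 resident cells and 32.7 to 107 CPM in bone marrow cells. Crem, a transcription factor of the cyclic AMP response, had 431 to 629, 106 to 182 and 136 to 350 CPM in the same order. Among the other members the likeness to Srxn1 was 0.713 for Nfe2l2, 0.671 for Txnrd1, 0.641 for Gclc, 0.609 for Osgin1, 0.580 for Gclm, 0.439 for Keap1 and 0.426 for Hmox1. With the group means removed it was 0.00185 for Nfe2l2, 0.498 for Txnrd1, 0.283 for Gclc, 0.611 for Osgin1, −0.323 for Gclm, 0.493 for Keap1 and 0.366 for Hmox1.

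The surroundings of these members were described with 106 further genes in 9 lists, of which 103 were tested. In MC903 resident against untreated cells 10 of the 103 passed (3 higher and 7 lower), 9.71% of them against 2.25% of all genes. Without library 2 or library 3 that count was 6. Between bone marrow and MC903 resident cells 6 passed (5 higher and 1 lower), 5.83% against 2.27%. That count was 2 without library 6, 9 or 10, and 3 without library 7, 11 or 13 or with DESeq2 size factors. Between bone marrow and untreated cells 25 passed (12 higher and 13 lower), 24.3% against 6.87%. That count was 18 to 29 with a library left out, 36 with the DESeq2 Wald test and 33 with limma. These counts do not show that the lists differ from other genes.

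Of 15 partners and regulators of Nrf2 tested, 2 passed in MC903 resident and 3 in bone marrow cells against untreated cells, all lower, and 0 passed between the treated groups with edgeR, where 2 had an unadjusted p under 0.05 and DESeq2 and limma each called 1. Against untreated cells DESeq2 called 2 and 5 of them in the same order, and limma 3 and 4. Mafk, a small Maf partner through which Nrf2 binds DNA, was at 158 ± 22.2 CPM in untreated resident (SD, n = 5), 40.6 ± 16.8 CPM in MC903 resident (SD, n = 5) and 49.1 ± 17.8 CPM in bone marrow cells (SD, n = 4). Its log2 fold changes against untreated cells were −1.95 ± 0.299 (SE, edgeR adjusted p = 0.000729) and −1.68 ± 0.321 (SE, edgeR adjusted p = 0.00194). Sqstm1, the autophagy receptor p62 that binds Keap1 and is itself an Nrf2 target, was at 8285 ± 892, 3251 ± 1335 and 3660 ± 698 CPM in the same groups, with log2 fold changes of −1.34 (edgeR adjusted p = 0.000943) and −1.18 (edgeR adjusted p = 0.00223). Ep300, a coactivator, fell by 1.31 on the log2 scale in bone marrow against untreated cells (edgeR adjusted p = 0.0122), a call lost when library 11 was left out (adjusted p = 0.0536) or no low-count filter was applied (adjusted p = 0.0581). The Mafk and Sqstm1 calls were kept in every alternative run.

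Of 20 thioredoxin, peroxiredoxin and glutaredoxin genes, 3 passed in MC903 resident against untreated cells (2 higher, 1 lower), 2 in bone marrow against MC903 resident cells (1 higher, 1 lower) and 6 in bone marrow against untreated cells (5 higher, 1 lower). DESeq2 and limma called 5 and 3, 4 and 3, and 11 and 9 in the same order. The peroxiredoxin Prdx4 of the endoplasmic reticulum was at 49.9 ± 23.4 CPM in untreated resident (SD, n = 5), 114 ± 26.5 CPM in MC903 resident (SD, n = 5) and 175 ± 29.9 CPM in bone marrow cells (SD, n = 4). Against untreated cells it rose by 1.198 (edgeR adjusted p = 0.0222) and 1.82 (edgeR adjusted p = 0.000429) on the log2 scale, of which the former was lost without library 2, without library 3 and without libraries 7, 8 and 15 together. The cytosolic peroxiredoxin Prdx2, a substrate of sulfiredoxin, went from 77.4 ± 14.4 to 128 ± 7.16 and 165 ± 19.1 CPM (edgeR adjusted p = 0.0267 and 0.000669 against untreated cells). The Prdx2 call in MC903 resident cells was lost without library 2, without libraries 7, 8 and 15 together and with no low-count filter. Txnip, the inhibitor of thioredoxin, fell in each comparison, from 799 ± 127 to 368 ± 72.1 and 190 ± 43.8 CPM. Its adjusted p with edgeR was 0.00144 in MC903 resident against untreated cells, 0.0104 between the treated groups and 2.01e-06 in bone marrow against untreated cells. Txn1, thioredoxin, rose in bone marrow cells by 0.84 against MC903 resident cells (edgeR adjusted p = 0.0298, lost in 7 of 9 fits with a library left out) and 0.89 against untreated cells (edgeR adjusted p = 0.00879). The fit without library 15 was among those 7. Txn1 was at 401 CPM in library 15 and between 225 and 307 CPM in libraries 11, 13 and 14. Glrx5, a glutaredoxin of iron-sulfur cluster assembly, rose by 1.05 against untreated cells (edgeR adjusted p = 0.00499).

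Of 16 genes of glutathione synthesis and use, 2 passed in MC903 resident against untreated cells (Gstm1 lower, Gstp1 higher), 1 between the treated groups (Gsto1, higher) and 4 in bone marrow against untreated cells (Gstm1 lower, and Gstp1, Abcc1 and Gpx1 higher). DESeq2 and limma called 3 and 3, 3 and 5, and 4 and 6 in the same order. Gstm1, a glutathione transferase, was at 2084 ± 251 CPM in untreated resident (SD, n = 5), 816 ± 147 CPM in MC903 resident (SD, n = 5) and 559 ± 47.4 CPM in bone marrow cells (SD, n = 4). Its log2 fold changes against untreated cells were −1.35 (edgeR adjusted p = 3.65e-05) and −1.90 (edgeR adjusted p = 9.06e-07). Gstp1 went the other way, from 84.8 ± 16.01 to 140.0 ± 12.4 and 170.1 ± 30.3 CPM (edgeR adjusted p = 0.0390, lost in 5 of 10 fits with a library left out, and 0.00220). Gsto1 rose by 1.73 in bone marrow against MC903 resident cells (edgeR adjusted p = 0.0233), which was lost in 5 of 9 such fits. Abcc1, an exporter of glutathione conjugates, rose by 0.84 (edgeR adjusted p = 0.0498) and Gpx1, a glutathione peroxidase, by 0.68 (edgeR adjusted p = 0.0462) against untreated cells, and each was lost in 7 of 9. For Gpx1 the fit without library 15 was among those 7. The transferases belong to families with close copies, so their counts depend on how shared reads were treated.

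Of 9 genes that supply NADPH, the reductant of both systems, 0 passed in MC903 resident against untreated cells with edgeR, where 1 had an unadjusted p under 0.05 and DESeq2 and limma called 0. In bone marrow cells 2 rose against MC903 resident cells and 4 against untreated cells, with none lower, where DESeq2 called 3 and 4 and limma 4 and 3. Tkt, transketolase, was at 94.5 ± 21.3 CPM in untreated resident (SD, n = 5), 88.1 ± 17.9 CPM in MC903 resident (SD, n = 5) and 205 ± 26.1 CPM in bone marrow cells (SD, n = 4). It rose by 1.21 against MC903 resident cells (edgeR adjusted p = 0.00332) and by 1.12 against untreated cells (edgeR adjusted p = 0.00209), and both calls were kept in every alternative run. The pentose phosphate genes Pgls (1.12, edgeR adjusted p = 0.00953) and Pgd (0.90, edgeR adjusted p = 0.0481, lost in 6 of 9 fits) also rose against untreated cells on the log2 scale, and the remaining gene was Taldo1, named after its value was seen (0.76, edgeR adjusted p = 0.0438). Pgd was at 110 CPM in library 15 and between 46.2 and 66.7 CPM in libraries 11, 13 and 14, and its call was among those lost without library 15 (adjusted p = 0.159). Idh2 rose by 1.05 against MC903 resident cells (edgeR adjusted p = 0.0444), which was lost in 7 of 9 fits, among them the fit without library 15 (adjusted p = 0.103). Idh2 was at 241 CPM in library 15 and between 112 and 158 CPM in libraries 11, 13 and 14. Pgls was at 246 CPM in library 15 and between 121 and 188 CPM in libraries 11, 13 and 14, and its call was kept in every alternative run. The part of the macrophage markers of library 15 in the levels of Pgd, Pgls, Idh2 and the other genes described here was not tested.

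Among genes related to Hmox1, the heme and iron list had 1 of 9 genes lower in MC903 resident cells and 2 lower in bone marrow cells against untreated cells. DESeq2 called 1 and 3 of them and limma 2 and 2. Between the treated groups 0 passed with edgeR, DESeq2 and limma, and 1 had an unadjusted p under 0.05. Fth1, the ferritin heavy chain that stores iron, was at 4564 ± 755 CPM in untreated resident (SD, n = 5), 2285 ± 385 CPM in MC903 resident (SD, n = 5) and 2257 ± 1277 CPM in bone marrow cells (SD, n = 4). Among bone marrow libraries, library 15 had 4117 CPM and the others 1406 to 2066 CPM. The log2 fold change of Fth1 was −0.99 in MC903 resident cells (edgeR adjusted p = 0.0267, lost in 8 of 10 fits with a library left out). In bone marrow cells it was −1.01 (edgeR adjusted p = 0.0175) with all libraries and −1.48 (edgeR adjusted p = 1.65e-05) without library 15. That call was lost without library 11 or 13, with no low-count filter (adjusted p = 0.150) and with only the groups compared. Reads of Fth1 and Ftl1 may be shared with their pseudogenes. Ftl1, the light chain, fell by 1.03 (edgeR adjusted p = 0.00222) in bone marrow against untreated cells.

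Of 10 other detoxification targets of Nrf2, Ephx1, an epoxide hydrolase, was the single one that passed with edgeR, in bone marrow against untreated cells. There 5 of the 10 had an unadjusted p under 0.05, and DESeq2 and limma each called 2. It was at 107 ± 41.2 CPM in untreated resident (SD, n = 5), 45.9 ± 10.8 CPM in MC903 resident (SD, n = 5) and 22.3 ± 22.1 CPM in bone marrow cells (SD, n = 4), where library 15 had 54.2 CPM and the others 5.95 to 20.1 CPM. The log2 fold change was −2.26 (edgeR adjusted p = 0.00531) with all libraries and −3.20 without library 15. In the other comparisons 0 passed with edgeR, where 1 and 2 had an unadjusted p under 0.05 and limma called 2 and 1 (DESeq2 called 0 in both). None of the 4 superoxide dismutase and catalase genes passed in any comparison with edgeR, DESeq2 or limma, and 1, 0 and 0 had an unadjusted p under 0.05.

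Atf4 is the transcription factor of the amino acid and integrated stress response and shares targets such as Slc7a11 with Nrf2. Atf4 was lower in both groups of treated mice than in untreated resident cells. It was at 754 ± 114 CPM in untreated resident (SD, n = 5), 304 ± 47.7 CPM in MC903 resident (SD, n = 5) and 241 ± 38.6 CPM in bone marrow cells (SD, n = 4), with log2 fold changes of −1.30 (edgeR adjusted p = 0.000135) and −1.65 (edgeR adjusted p = 8.79e-06). Of the 10 genes in its list it was the single one that passed against untreated cells with edgeR. In bone marrow against untreated cells 6 of the 10 had an unadjusted p under 0.05, and DESeq2 called 3 and limma 4. Psat1, a serine synthesis enzyme, passed between the treated groups (higher by 1.82, edgeR adjusted p = 0.0383, where DESeq2 called 1 gene of the list and limma 2), a call lost in 9 of 9 fits with a library left out.

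The AP-1 family, whose letters overlap the ARE in the Srxn1 and Osgin1 stretches shown above, had 1 of 10 genes lower in MC903 resident cells and 4 lower in bone marrow cells against untreated cells. In MC903 resident cells 6 of the 10 had an unadjusted p under 0.05, and DESeq2 called 2 and limma 4. Atf3 was at 170 to 371 CPM there, below all untreated libraries (818 to 1449 CPM), with a log2 fold change of −1.76 (edgeR adjusted p = 0.0820), and Jun was also lower without overlap (−0.93, edgeR adjusted p = 0.0556). Between the treated groups 0 passed with edgeR and limma, 1 passed with DESeq2, and 2 had an unadjusted p under 0.05. Junb stood at 4140 ± 1205 CPM in untreated resident cells (SD, n = 5). It fell to 2236 ± 502 CPM in MC903 resident cells (SD, n = 5, edgeR adjusted p = 0.0191, lost in 5 of 10 fits with a library left out) and to 2269 ± 496 CPM in bone marrow cells (SD, n = 4, edgeR adjusted p = 0.0161). Jun fell by 1.31 (edgeR adjusted p = 0.00388) and Fosb by 1.17 (edgeR adjusted p = 0.00371) on the log2 scale in bone marrow against untreated cells, and the Jun call was lost with no low-count filter (adjusted p = 0.0567). Atf3, a stress-induced member, was at 102 to 163 CPM in bone marrow libraries 11, 13 and 14 and at 712 CPM in library 15, against 818 to 1449 CPM in untreated cells. Its log2 fold change in bone marrow against untreated cells was −1.89 (edgeR adjusted p = 0.0446, lost in 8 of 9 fits) with all libraries and −3.01 (edgeR adjusted p = 1.88e-07) without library 15. Genes of this family are known to respond to tissue dissociation, and the part of handling in these values was not tested.

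**Figure D5:**
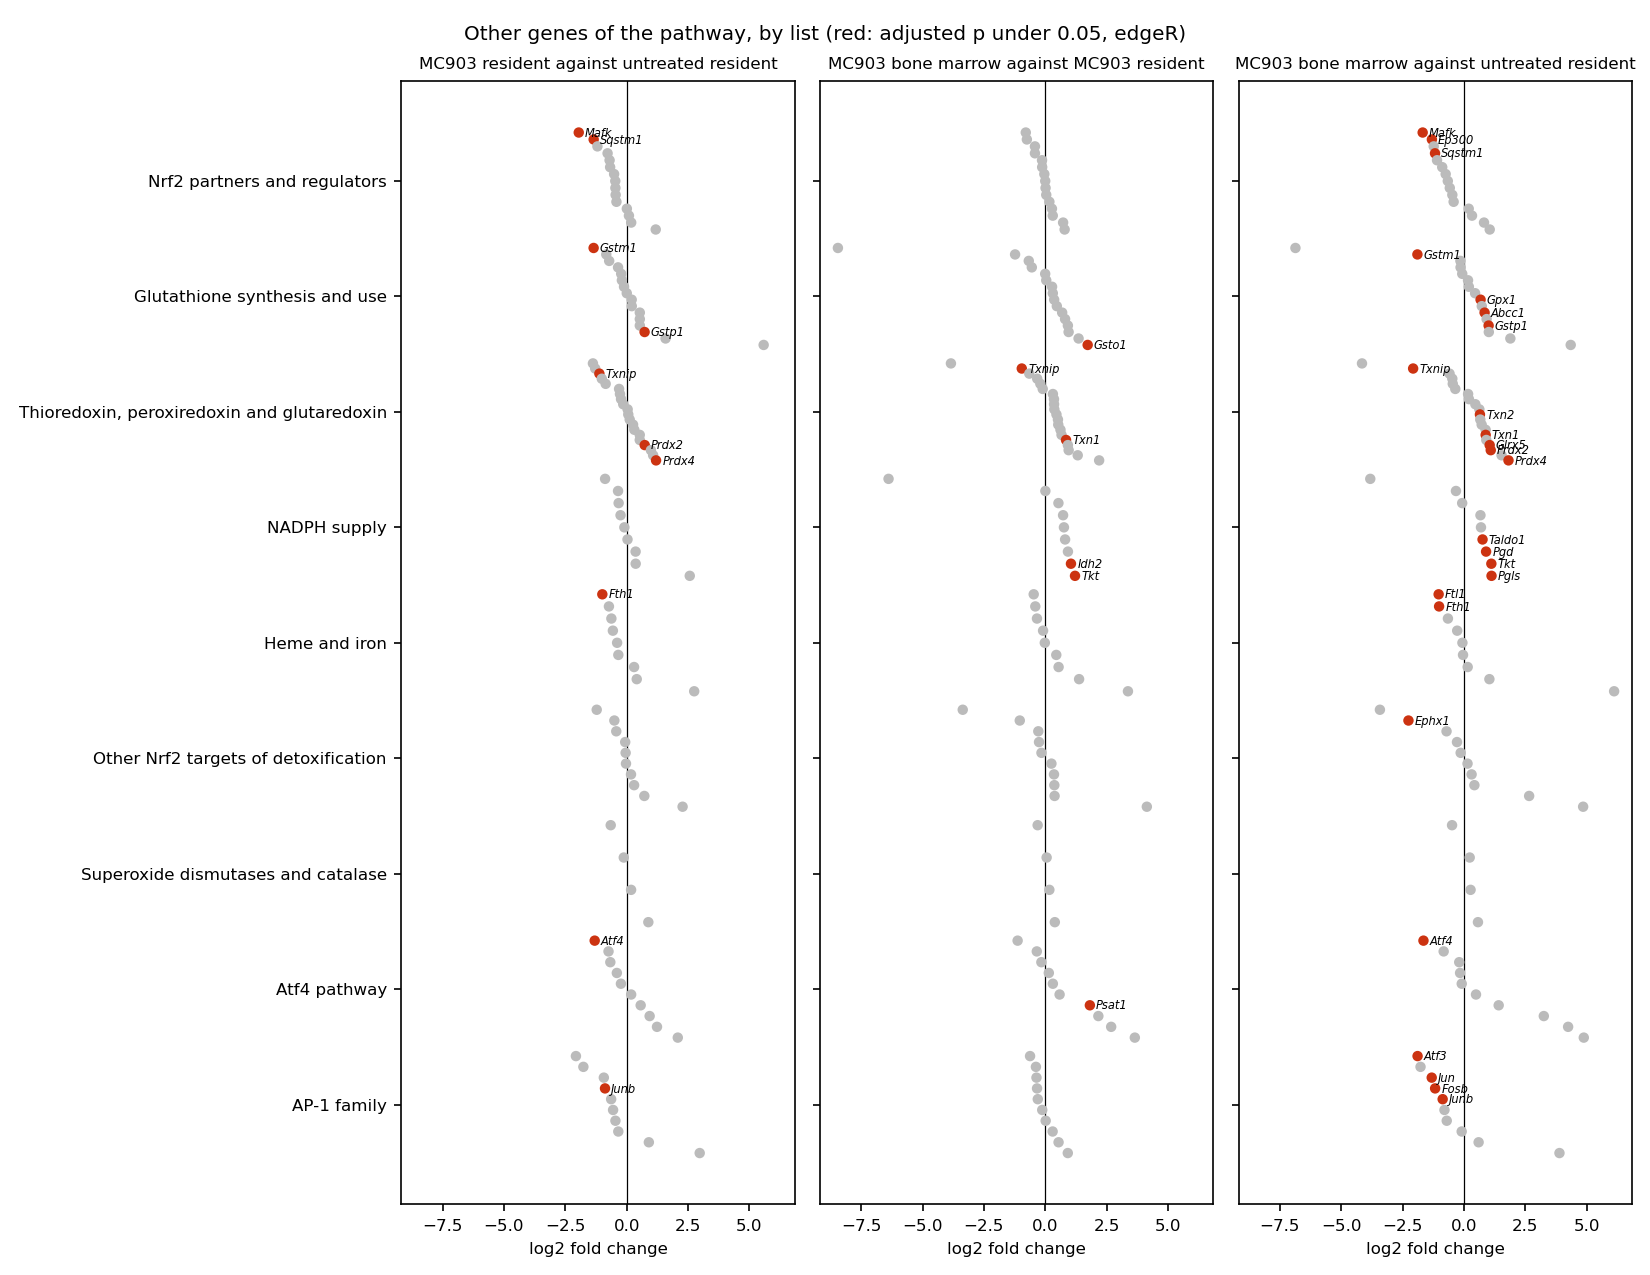
Log2 fold change (x axis) of the further pathway genes, with a point for each gene by list (y axis), in the 3 comparisons (panels). Red marks genes with an adjusted p under 0.05 by edgeR, 10, 6 and 25 of the 103 tested from left to right, and the red genes are labelled.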

How the data were processed

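The authors deposited unnormalised counts, whole numbers of reads for each gene, in 14 columns, all used here (0 other sample columns). Reads were aligned with STAR to mm10 and counted with featureCounts, per the submitters' processing notes, and versions, strand setting and treatment of shared reads were not given in the sources used here. Of the 55487 identifiers, 55394 matched a symbol, and 55094 occurred with the same version and coordinates in GENCODE M21 on GRCm38. There were no molecular identifiers, so amplified reads can repeat a molecule.

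Libraries were grouped by the labels. Low genes were removed by filterByExpr (per group, count minimum of 10 and total of 15), and TMM set the scaling. The 3 groups, without covariates, entered 1 edgeR 4.0.16 model over all 14 libraries (R 4.3.3, robust glmQLFit and glmQLFTest), with Benjamini-Hochberg adjustment over the 21014 genes tested and calls at an adjusted p under 0.05. CPM are counts divided by the library total times the TMM factor, on the usual CPM scale, and RPKM are these per kilobase of exon. The common dispersion was 1.33. Errors are the SD between libraries for levels and the SE for log2 fold changes.

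On simulated counts of MC903 resident against untreated resident cells (18495 genes tested), 85% of genes changed by 2 and 95% of those changed by 3 on the log2 scale were called, and 0.0219% of unchanged genes. The changed genes were drawn from those with a mean above 20 CPM, and no smaller change was simulated. The shares called therefore do not apply to lower genes or to smaller differences.

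The members and the gene lists were chosen with earlier results of these data known. The text names all 10 members, up to 3 called genes in each direction with the largest log2 fold change in each list and comparison, and the 5 genes most correlated with Srxn1. Marker lists of mast cells, keratinocytes, fibroblasts, macrophages and dendritic cells, neutrophils, T cells and basophils were used to look for other cells. Alternatives were DESeq2 size factors, TMM factors from genes at 10 CPM or more, no filter on low counts, the DESeq2 1.42.0 Wald test, voomWithQualityWeights of limma 3.58.1, fits restricted to the 2 groups of a comparison, and leaving out each library in turn. Leaving out libraries 7, 8 and 15 together was added after seeing the data.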

Additional observations from a re-analysis of the deposited data

Results flagged for a closer look

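In 6 of 30 groups of libraries (10 genes in 3 groups), the highest or lowest library lay further from the rest than Dixon's limit for the group size. Chance gives about 1 such group in 20. Nfe2l2 reached 263 CPM in library 10, above 166 to 175 CPM in the other MC903 resident libraries. Srxn1 was at 613 CPM in library 2, below the other untreated resident libraries at 1147 to 1308 CPM. Hmox1 was at 720 CPM in library 15, where the other bone marrow libraries had 11.9 to 26.5 CPM and where macrophage markers were high as well. Osgin1 was at 82.7 CPM in library 6, against 3.38 to 26.2 CPM in the other MC903 resident libraries. The remaining pair are low genes: Slc7a11 at 7.005 CPM in library 5 of the untreated resident cells, and Nqo1 at 4.05 CPM in library 14 of the bone marrow cells, the single library of its group with any read of it.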

How the results depend on the processing

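No paired analysis was possible because the labels name no animal and number the libraries in a single running series, so whether libraries of different groups share an animal is unknown. The limits are few libraries per group, no animal in the labels, and few reads of Osgin1 in bone marrow cells (4 to 49 per library) and of Nqo1 and Slc7a11, which got no fold change and no alternatives. Gclc and Osgin1 in bone marrow against untreated cells were called under every alternative.

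The number of members called in bone marrow against MC903 resident cells, 1, became 2 with the DESeq2 Wald test, and 0 with limma or with only the groups compared, and ranged from 0 to 1 when a library was left out (0 without library 10, 11, 13 or 14). Against untreated cells, 2 became 4 with the DESeq2 Wald test and 4 with limma, and 2 to 3 with a library left out. Of the further pathway genes, 10 called in MC903 resident against untreated cells became 18 with limma and 6 to 9 with a library left out (6 without library 2 or 3). In bone marrow against MC903 resident cells 6 became 3 with DESeq2 size factors, 3 with TMM factors from genes of at least 10 CPM, 13 with the DESeq2 Wald test, 16 with limma and 2 to 6 with a library left out (2 without library 6, 9 or 10, and 3 without library 7, 11 or 13). Without libraries 7, 8 and 15 (chosen after seeing the data), 1 and 3 members were called in these comparisons, and 8, 6 and 20 further genes in the 3 comparisons.

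Some directions reversed, none of them of a value called with every library. Keap1 in bone marrow against MC903 resident cells was 0.14 and became −0.0165 with DESeq2 size factors, −0.0325 with TMM factors from genes of at least 10 CPM and −0.0165 with the DESeq2 Wald test. Gclm in the same comparison was 0.04 and became −0.11, −0.12 and −0.11 with these, −0.13 with limma, −0.064 with only the groups compared and −0.0314 without libraries 7, 8 and 15. Without those libraries Hmox1 became −0.81 and −1.82 against MC903 resident and untreated cells, with limma −1.15 against untreated cells, and Keap1 against untreated cells 0.0166, and Srxn1 against MC903 resident cells went from 0.48 to −0.041. With 1 library left out, log2 fold changes in bone marrow against MC903 resident cells ranged from −0.17 to 0.27 for Gclm, −0.59 to 3.18 for Hmox1, −0.43 to 0.46 for Keap1 and −1.14 to 0.0745 for Txnrd1, and against untreated cells from −1.81 to 1.99 for Hmox1 and −0.73 to 0.15 for Keap1. Apart from the libraries left out, the cause was not tested.

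Counts over all genes were 473, 477 and 1443 in the 3 comparisons (MC903 resident against untreated, bone marrow against MC903 resident, bone marrow against untreated), 1063, 1711 and 2707 with the DESeq2 Wald test and 1357, 2073 and 2212 with limma. The first was 253 without libraries 7, 8 and 15 and 312 to 516 with a library left out (312 without library 1, 314 without library 6), and the second 315 with only the groups compared and 302 to 704 with a library left out (302 without library 7, 305 without library 6 and 314 without library 9). Higher and lower calls split as 120 and 353 in the first, but 207 and 294 with DESeq2 size factors 250 and 266 with the other TMM factors, 596 and 467 with the DESeq2 Wald test and 660 and 697 with limma. In the second the split was 277 and 200, but 167 and 242, 178 and 254, 444 and 1267, and 679 and 1394 with these 4 in turn.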
